A study of Mus musculus with 12 samples.

Results

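The genes Edil3, Ccdc85a, Cpne4, Dgkb and Cdhr1 and the long non-coding RNA 9130024F11Rik were measured in mice in which exon 7 of Auts2 had been removed. These 6 genes were chosen by their read counts, which differed in the same direction in both brain tissues of the study: the first 5 were lower and 9130024F11Rik was higher in the knockouts. The genotype differences are therefore the values that chose them, and they are given below as a description and without a test. Of 55487 genes in the count files, 15643 were tested in both tissues, and 13 of them passed an adjusted p of 0.05 in both. The sign was the same for 9 of these, of which the 6 described here are a part, and opposite for the others.

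Each of the 12 libraries was made from 1 male mouse. Newborn forebrains (P0, postnatal day 0) came from 3 Cmv-cre, Auts2-ex7 knockouts (labelled cmv-cre_auts2-ex7koko) and 3 wild-type littermates (labelled BL6 WTLM). Hippocampi of P14 mice (postnatal day 14) came from 3 Nes-cre, Auts2-ex7 knockouts (labelled nes-cre_auts2-ex7koko) and 3 controls labelled auts2-ex7-fl-het, that is, heterozygous for the floxed allele. Whether these controls also carry Nes-cre is not given in the sources used here, so they may hold 1 deleted allele. Cmv-cre deletes in all tissues and the germ line, whereas Nes-cre deletes in neural progenitors and the cells that descend from them, so it leaves the floxed exon in most cells of other origin, such as microglia and vessels. Tissue, age, Cre line and the kind of control differ together between these 2 contexts and cannot be told apart.

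In the nucleus, AUTS2 associates with a variant of Polycomb repressive complex 1. It has been tied there to the activation of neuronal genes, in part through the transcription factor NRF1. The 5 lower genes encode proteins of different kinds. Edil3 is a secreted matrix protein that binds integrins through an RGD motif, Ccdc85a is a coiled-coil protein of a family that binds delta catenins at cell junctions, and Cdhr1 is a cadherin-related membrane protein known from photoreceptors and from the mitral and tufted cells of the olfactory bulb. Cpne4 is a copine, a protein that binds phospholipid membranes when calcium rises, and Dgkb is the beta form of diacylglycerol kinase, which turns the lipid messenger diacylglycerol into phosphatidic acid and is abundant in forebrain neurons.

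Total gene counts lay between 11247150 and 16796797 in the P0 libraries and between 16830720 and 23340621 in the P14 libraries. The targeted gene, Auts2, was at 160, 136 and 155 CPM (read counts scaled to library size) in the P0 wild types and at 165, 182 and 161 in the P0 knockouts. Its log2 fold change at P0 was 0.16 (SE 0.08, edgeR adjusted p = 0.362). At P14 it was at 97.5, 98.0 and 110 CPM in the controls and at 93.0, 77.5 and 75.2 in the knockouts, a log2 fold change of -0.30 (SE 0.09, edgeR adjusted p = 0.111). Counts over the whole gene hold reads from all of its exons and isoforms, so they do not check the deletion of exon 7. Tissue markers were those of the labels: the 8 hindbrain genes of the marker lists summed to at most 3.95 CPM in any library, and the dentate granule cell gene Prox1 was at 191 ± 16.7 CPM (SD, n = 3) in the P14 controls. The choroid plexus list, led by Ttr, ran from 162 to 2600 CPM among the P14 controls.

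All 6 genes are spread over different chromosomes (GRCm38, GENCODE vM21). On the plus strand, Edil3 (ENSMUSG00000034488) spans chr13:88821472-89323223, Cpne4 (ENSMUSG00000032564) spans chr9:104547286-105034544 and Dgkb (ENSMUSG00000036095) spans chr12:37817726-38634239, and so does the non-coding 9130024F11Rik (ENSMUSG00000087022), at chr1:56971412-57050084. Ccdc85a (ENSMUSG00000032878) spans chr11:28385685-28584324 and Cdhr1 (ENSMUSG00000021803) spans chr14:37077857-37098347, both on the minus strand.

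Since the 5 lower genes moved together, the 250 bases upstream of their start sites were read. RefSeq's table (GRCm38.p6) held a start site for 5 of the 6 genes, all but Edil3. The 3 windows of the lower genes without an annotated exon at their first RefSeq start are shown 5′ to 3′ on the gene's own strand, in lower case with each E-box (CANNTG, the site of basic helix-loop-helix factors, which reads the same on both strands) in capitals. They lie at chr11:28584325-28584574 on the minus strand for Ccdc85a, chr12:37879924-37880173 on the plus strand for Dgkb, and chr14:37098348-37098597 on the minus strand for Cdhr1. The Dgkb window lies inside the longer GENCODE model of the gene.
Ccdc85a: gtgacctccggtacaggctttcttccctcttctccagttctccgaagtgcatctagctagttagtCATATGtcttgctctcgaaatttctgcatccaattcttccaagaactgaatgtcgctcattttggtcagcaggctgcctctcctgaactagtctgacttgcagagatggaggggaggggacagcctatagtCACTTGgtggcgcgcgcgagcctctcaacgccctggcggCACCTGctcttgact
Dgkb: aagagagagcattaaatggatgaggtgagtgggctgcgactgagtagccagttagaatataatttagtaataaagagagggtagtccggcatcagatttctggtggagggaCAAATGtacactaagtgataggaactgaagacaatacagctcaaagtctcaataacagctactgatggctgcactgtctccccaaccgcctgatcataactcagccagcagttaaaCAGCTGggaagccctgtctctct
Cdhr1: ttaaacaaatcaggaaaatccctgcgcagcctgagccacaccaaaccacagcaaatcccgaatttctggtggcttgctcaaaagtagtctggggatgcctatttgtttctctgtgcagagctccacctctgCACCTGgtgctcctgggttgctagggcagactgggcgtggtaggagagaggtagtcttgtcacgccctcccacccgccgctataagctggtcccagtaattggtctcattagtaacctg
The E-box was found at positions -185, -54 and -15 from the start in Ccdc85a, at -139 and -23 in Dgkb and at -119 in Cdhr1. Both Cpne4 windows held 1 and the 9130024F11Rik window held none. Of all 32851 promoter windows, 66.2% held this motif, so its presence in these genes is near the background. The full palindromic NRF1 site, searched because AUTS2 is known to work with NRF1, was in none of the 6 windows of the members and in 0.782% of all windows. Its core TGCGCA, also searched on both strands, was found once, in Cdhr1 at position -228, and in 6.43% of all windows. The CCAAT box (CCAAT, both strands) was found in Ccdc85a, Cdhr1 and 1 window of Cpne4, and in 33.8% of all windows. The T-box site TCACACCT was found only in 9130024F11Rik, at position -17, and in 1.12% of all windows. No motif searched was common to the 5 matched genes, and a match or its absence in these letters says nothing about binding.

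All lower genes except Cdhr1 are very long. Dgkb measures 817 kb, Edil3 502 kb, Cpne4 487 kb and Ccdc85a 199 kb, which put them between the 94.6th and the 99.5th percentile of gene length among tested genes, whose median is 19.6 kb. Cdhr1 measures 20.5 kb. At P0, the 2304 tested genes of at least 100 kb had a median log2 fold change of -0.104 and 71.6% of them lay below 0, against 50.1% of all genes. At P14 the corresponding 2378 genes had a median of 0.00909, with 47.8% below 0. Of these long genes, 54 were called lower at P0 (2.34%, beside 0.717% of all genes) and 2 of the 2304 higher, beside 0.192% of all genes. At P14, 41 were called lower (1.72%, beside 0.773% of all genes) and 70 of the 2378 higher, beside 1.21% of all genes. The counts of lower genes include Dgkb, Edil3, Cpne4 and Ccdc85a in both contexts. The part of gene length in the values of these 4 genes was not tested. The share of G and C in their exons was 40.5% for Dgkb, 42.2% for Edil3, 46.8% for Ccdc85a and 48.1% for Cpne4, against a median of 50.4%. In the same order these lie at percentiles 4.62, 8.79, 29.0 and 36.9 of tested genes. With an offset on GC content, the P14 log2 fold change of Dgkb moved from -0.43 to -0.30 and that of Edil3 from -0.37 to -0.26.

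The values that chose the genes are given first by library. CPM were computed over all 12 libraries, and log2 fold changes were fitted with edgeR within the 6 libraries of each context. Across all tested genes, 0.909% were called at P0 (adjusted p under 0.05), 0.717% lower and 0.192% higher, and 1.99% at P14, 0.773% lower and 1.21% higher. Calls in both contexts made up 0.0831% of the genes with a test at each age, 0.0447% lower and 0.0128% higher in each, and the rest with opposite signs. A log2 fold change below 0 in both, with no threshold, was found for 25.6% of genes, and above 0 in both for 24.3%. For each of the 6 genes all knockout libraries lay on the same side of all control libraries in both contexts. At P0 this held for 11.1% of all genes on the lower and 10.7% on the higher side, at P14 for 10.6% and 9.43%, and in both for 1.55% and 0.914%.

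**Figure D1:**
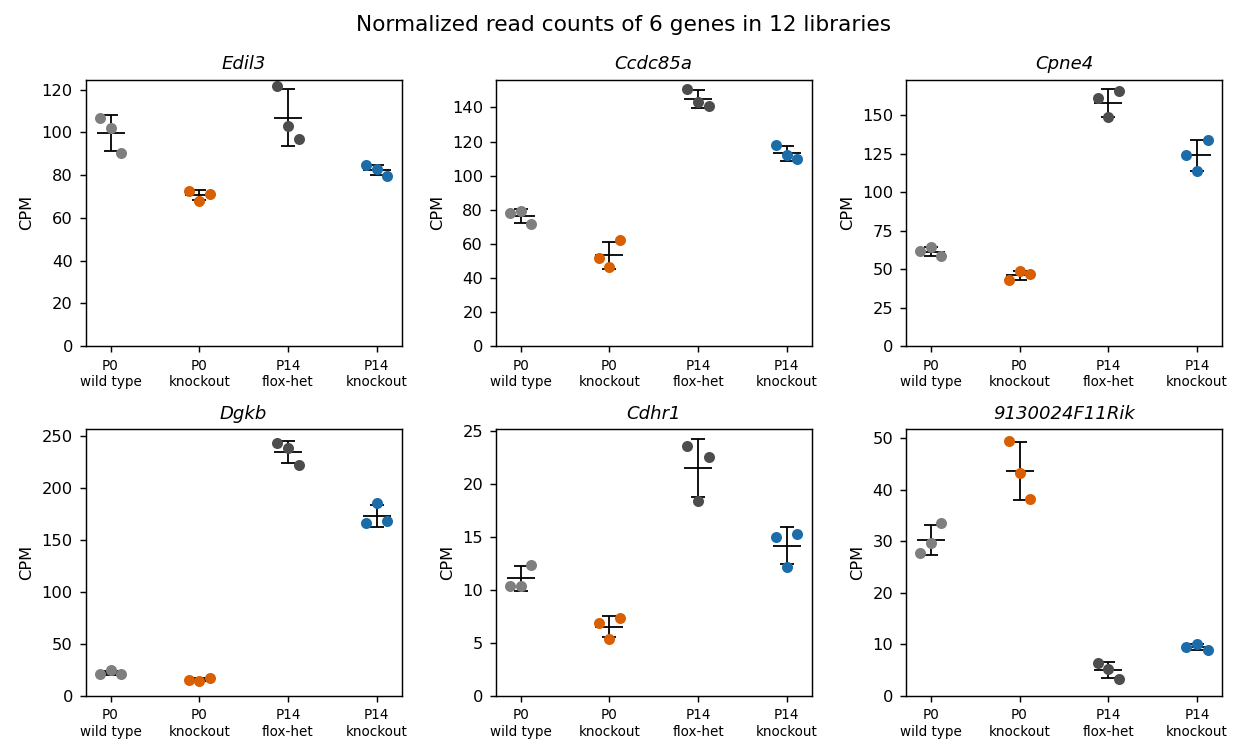
CPM of the 6 genes in each of the 12 libraries (points), with the group mean and SD (bars, n = 3), all axes starting at 0. In both contexts the knockout points of the first 5 genes lie below the control points, and those of 9130024F11Rik lie above, from 38.1 to 49.4 against 27.8 to 33.6 at P0.

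Edil3, the RGD ligand, was at 107, 102 and 90.5 CPM in the P0 wild types and at 72.8, 67.9 and 71.3 in the P0 knockouts. Its P14 values were 122, 103 and 97.0 in the controls and 84.7, 82.8 and 79.8 in the knockouts. The knockout libraries lay within a few CPM of each other in both contexts, and the control libraries were more spread. The log2 fold change was -0.50 (SE 0.08) at P0 and -0.37 (SE 0.08) at P14. Leaving out 1 library at a time gave -0.56 to -0.45 and -0.43 to -0.27, and the smallest P14 value came without control 1, the highest library.

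Ccdc85a, the delta catenin partner, was at 78.3, 79.4 and 71.6 CPM in the P0 wild types and at 51.7, 46.3 and 62.0 in the knockouts. The P14 controls were at 151, 143 and 141 and the P14 knockouts at 118, 112 and 110. The P0 knockout 3 was the closest to the wild types, while the P14 groups were tight. Its log2 fold change was -0.52 (SE 0.10) at P0 and -0.34 (SE 0.07) at P14, with ranges of -0.64 to -0.42 and -0.38 to -0.32 when 1 library was left out.

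Cdhr1, the cadherin-related protein, had the lowest counts of the lower genes. It was at 10.4, 10.4 and 12.4 CPM in the P0 wild types and at 6.92, 5.39 and 7.32 in the knockouts, from 65 to 224 reads per library. Cdhr1 at P14 was at 23.6, 18.4 and 22.6 in the controls and at 15.0, 12.2 and 15.3 in the knockouts. The log2 fold change was -0.76 (SE 0.16) at P0 and -0.60 (SE 0.13) at P14, the furthest from 0 among the 5 lower genes in each context, with the widest SE.

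Cpne4, the copine, was at 61.7, 64.3 and 58.2 CPM in the P0 wild types and at 42.9, 48.7 and 46.5 in the knockouts. At P14 it was at 161, 149 and 166 in the controls and at 124, 114 and 134 in the knockouts. No library stood apart from its group. The log2 fold change was -0.42 (SE 0.09) at P0 and -0.35 (SE 0.08) at P14, with ranges of -0.46 to -0.37 and -0.41 to -0.29 when 1 library was left out.

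Dgkb, the diacylglycerol kinase, was at 21.2, 24.4 and 21.0 CPM in the P0 wild types and at 15.0, 14.1 and 16.8 in the knockouts. The P14 libraries held far more, 243, 238 and 222 in the controls and 166, 185 and 168 in the knockouts. In CPM the gap between the group means was thus much wider at P14, at a like ratio. The log2 fold change was -0.54 (SE 0.12) at P0 and -0.43 (SE 0.07) at P14, with ranges of -0.61 to -0.46 and -0.47 to -0.40 when 1 library was left out.

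9130024F11Rik, the non-coding RNA, was at 27.8, 29.6 and 33.6 CPM in the P0 wild types and at 49.4, 43.3 and 38.1 in the knockouts. At P14 it was at 6.30, 5.25 and 3.32 in the controls and at 9.50, 10.1 and 8.90 in the knockouts, with 63 to 217 reads per library. Control 3 at P14 was the lowest of all 12 libraries. The log2 fold change was 0.51 (SE 0.11) at P0 and 0.96 (SE 0.20) at P14, and without that control the P14 value was 0.74.

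**Figure D2:**
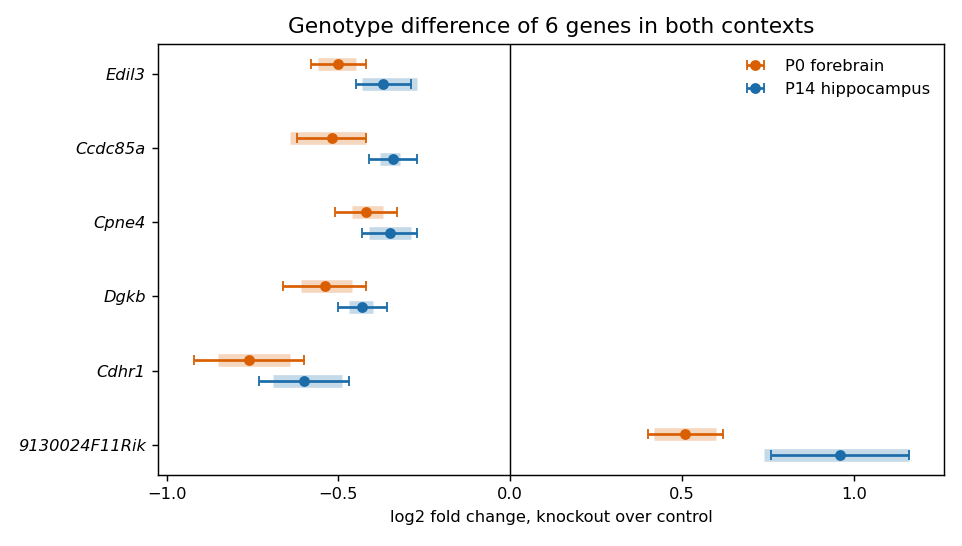
Log2 fold change of knockout over control for the 6 genes at P0 (orange) and P14 (blue). Points with thin bars give the fitted value and its SE, and pale bands give the range when each library was left out in turn; the 5 lower genes lie between -0.76 and -0.34 and 9130024F11Rik at 0.51 and 0.96.

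The 5 lower genes had nearly the same ratio in both contexts. The difference of the log2 fold changes (P14 minus P0) was 0.12 (SE 0.12) for Edil3, 0.16 (SE 0.13) for Ccdc85a and 0.06 (SE 0.12) for Cpne4. It was 0.09 (SE 0.13) for Dgkb and 0.15 (SE 0.21) for Cdhr1, and 0.43 (SE 0.22) for 9130024F11Rik. All 6 differences lay within 2 SE of 0. Of all genes tested, 1.79% passed an adjusted p of 0.05 in edgeR for this difference. Both contrasts chose these genes, so likeness between contexts is part of the choice and was not tested. The median of the 5 lower genes was -0.52 at P0 and -0.37 at P14, beside -0.000337 and -0.00733 for all genes tested.

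Passing the threshold, which chose the genes, depended on single libraries in edgeR. At P0, 6 of 6 genes passed with all libraries. Without wild type 1, wild type 2, knockout 1 or knockout 2, 0 of 6 passed, and 2, 1, 1 and 15 genes of all those tested did. Without wild type 3, 4 of 6 passed, beside 1.51% of all genes, and without knockout 3, 6 of 6, beside 4.69%. At P14, 6 of 6 passed without control 3, beside 10.3% of all genes. In the other P14 fits, 2 passed without control 1 and 1 without control 2, and 0, 1 and 2 without knockout 1, 2 or 3, beside 0.595% to 1.08% of all genes. Where 0 of 6 passed, 6 of 6 had an unadjusted p under 0.05, and DESeq2 called 6 of 6 in both contexts with all libraries; since these are the values that chose the genes, neither count is support. Non-robust fitting of all libraries left 1 of 6 at P0, beside 0.309% of all genes, and 4 of 6 at P14, beside 1.62%. At P0, 3 of 6 passed with the larger strand column (0.685% of all genes) and with a minimum of 10 counts in every library (0.848%). At P14, 3 of 6 passed with an offset on GC content (1.59%).

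The P0 libraries bear numbers of 2 series, 1407 to 1410 and the pair 1415 and 1416, which are knockout 3 and wild type 3. Within the 4 libraries of the first series the log2 fold change was -0.57 for Edil3, -0.68 for Ccdc85a, -0.46 for Cpne4, -0.64 for Dgkb, -0.75 for Cdhr1 and 0.69 for 9130024F11Rik. In the later pair, with 1 library a group and no test, the log2 ratios were -0.34, -0.21, -0.32, -0.32, -0.76 and 0.18 in the same order. Cdhr1 had nearly the same ratio in both series, and the other 5 genes were nearer 0 in the pair.

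The threshold that chose the genes lay close to 3 of them. The larger of the 2 adjusted p-values was 0.0475 for Cdhr1, 0.0491 for 9130024F11Rik and 0.0498 for Dgkb. Just outside it were Tle3 (0.0516), a Groucho corepressor that was higher in both, with log2 fold changes of 0.40 at P0 and 0.60 at P14, and Unc5c (0.0565), a netrin receptor that was lower in both, at -0.41 and -0.39. Kcnip2 (0.0565), a subunit of A-type potassium channels, was at -0.48 and -0.32. Among the other genes called in the same direction in both contexts were Calb1 and Fezf2. Calb1, which encodes a calcium buffer of dentate granule cells and interneurons, had log2 fold changes of -0.59 at P0 and -0.41 at P14, and was called in 2 of 6 fits without 1 library at P0 and 1 of 6 at P14, with an edgeR adjusted p of up to 0.201. Fezf2, a transcription factor of subcortical projection neurons, was at 0.42 and 0.49, and was called in 2 of 6 such fits in each context, with an edgeR adjusted p of up to 0.248.

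Levels between the contexts were not used in choosing the genes and could be tested. In the controls, 64.0% of all genes tested differed between P14 hippocampus and P0 forebrain, 32.3% higher and 31.7% lower at P14. Of the 6 genes, 4 were higher at P14, 1 was lower and Edil3 did not pass. A difference between the contexts was thus common among all genes, and whether the shares of the 6 depart from the background was not tested. Dgkb rose from 22.2 ± 1.89 to 234 ± 10.5 CPM (SD, n = 3), a log2 fold change of 3.40 (SE 0.09, edgeR adjusted p = 2.19e-18) and a 10.6-fold difference. Cpne4 rose by 1.37 on the log2 scale (SE 0.08, edgeR adjusted p = 1.74e-12). Cdhr1 rose by 0.95 (SE 0.14, edgeR adjusted p = 3.97e-06) and Ccdc85a by 0.92 (SE 0.09, edgeR adjusted p = 5.35e-09). Opposite to these, 9130024F11Rik fell by 2.62 (SE 0.16, edgeR adjusted p = 1.12e-11), from 30.3 ± 2.93 to 4.96 ± 1.51 CPM, which is 6.16-fold. Edil3 was at 99.8 ± 8.38 and 107 ± 13.2 CPM, a log2 fold change of 0.11 (SE 0.09, edgeR adjusted p = 0.296).

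In the knockouts, where 64.3% of genes differed (32.1% higher and 32.2% lower at P14), the same 5 genes passed with the same signs. Both contrasts came from 1 fit of 12 libraries with a shared estimate of spread, and the genes were chosen for like genotype differences, so the knockouts are no independent check. In the knockouts the log2 fold changes were 3.49 for Dgkb, 1.43 for Cpne4, 1.10 for Cdhr1, 1.08 for Ccdc85a and -2.19 for 9130024F11Rik. Each stayed past the threshold with any 1 library left out, in controls and in knockouts. Edil3 reached 0.22 (SE 0.09, edgeR adjusted p = 0.0314) in the knockouts, and lost the call without P0 knockout 2, P14 knockout 1 or P14 knockout 2, with an adjusted p of up to 0.102. Exact two-sided permutation tests of log2 CPM gave p = 0.1 for each of the 5 other genes, the smallest value that 3 against 3 libraries allow, and p = 0.5 for Edil3 in the controls.

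**Figure D3:**
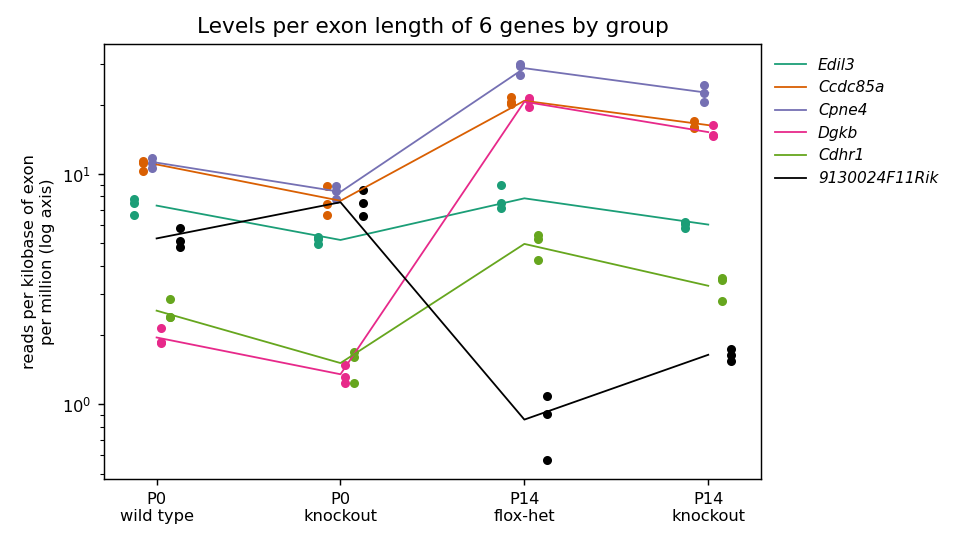
RPKM (CPM per kilobase of exon) for the 6 genes in each library (points, log axis), by group, with lines joining group means. Dgkb climbs from the lowest of the 6 genes in the P0 wild types (1.95) to the level of Ccdc85a in the P14 controls (20.6 and 20.8), and 9130024F11Rik drops from 5.25 to 0.858.

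Per exon length, Cpne4 and Ccdc85a were the highest of the 6 genes in the P0 wild types, at 10.6 to 11.7 and 10.3 to 11.4 RPKM (CPM per kilobase of exon), and did not differ beyond their spread. Below them came Edil3 (7.29 ± 0.612 RPKM, SD, n = 3), 9130024F11Rik (5.25 ± 0.508), Cdhr1 (2.55 ± 0.268) and Dgkb (1.95 ± 0.166), with no overlap between neighbours in this order. In the P0 knockouts Cpne4 (8.36 ± 0.531), Ccdc85a (7.65 ± 1.14) and 9130024F11Rik (7.54 ± 0.977) overlapped, above Edil3 (5.17 ± 0.184), and Cdhr1 (1.51 ± 0.235) and Dgkb (1.35 ± 0.122) overlapped at the bottom. The place of the non-coding RNA depended on the counting: with the reads of both strand columns, it was at 6.37 to 8.29 RPKM in the P0 wild types, overlapping Edil3 at 6.62 to 7.81, and at 9.44 to 11.7 in the knockouts. In the P14 controls the order was Cpne4 (28.8 ± 1.62 RPKM), Ccdc85a (20.8 ± 0.795) and Dgkb (20.6 ± 0.926), of which the last 2 overlapped, then Edil3 (7.84 ± 0.962), Cdhr1 (4.97 ± 0.631) and 9130024F11Rik (0.858 ± 0.261). The P14 knockouts had the same order, from Cpne4 at 22.5 ± 1.82 RPKM to 9130024F11Rik at 1.64 ± 0.102. Among all genes tested, Cpne4 stood at the 90.2nd percentile in the P14 controls and Dgkb moved from the 36.1st to the 85.8th.

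Cpne4 and Dgkb belong to families with several measured members. Over the 78 tested genes of 7 family and pathway lists other than the 6 genes, 3.85% were called at P0 and 11.5% at P14, beside 0.909% and 1.99% of all genes. Of the copines, 7 besides Cpne4 were tested. At P0, 6 of these 7 lay below 0 with a median of -0.47, beside -0.000337 for all genes. The copines listed other than Cpne4 summed to 188 to 235 CPM in the P0 wild types and 147 to 172 in the knockouts, without overlap. Of the 7, 0 passed in edgeR, 5 had an unadjusted p under 0.05 and 3 passed in DESeq2 (Cpne2, Cpne5 and Cpne8). At P14, 2 of 7 lay below 0 with a median of 0.048, and the sums overlapped, at 817 to 863 and 716 to 880 CPM. Cpne5 rose there from 29.1 ± 1.16 to 40.2 ± 2.54 CPM (SD, n = 3; log2 fold change 0.48, SE 0.09, edgeR adjusted p = 0.00959), and kept the call in 3 of 6 fits without 1 library, with an adjusted p of up to 0.0858. Cpne9 fell from 12.8 ± 2.06 to 6.31 ± 0.982 CPM (-1.02, SE 0.16, edgeR adjusted p = 0.00377), in 6 of 6 such fits. Cpne4 is the only copine of the 8 that was called in both contexts, which the choice of Cpne4 fixes.

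Of the diacylglycerol kinases, 9 besides Dgkb were tested. At P0, 8 of 9 lay below 0 with a median of -0.066, and the 9 summed to 466 to 483 CPM in the wild types and 420 to 444 in the knockouts, without overlap. Dgkk fell there from 21.3 ± 2.13 to 13.3 ± 0.358 CPM (SD, n = 3; log2 fold change -0.69, SE 0.12, edgeR adjusted p = 0.0214). At P14, 3 of 9 lay below 0 with a median of 0.11, and the sums overlapped, at 1120 to 1210 and 1130 to 1170 CPM. Dgkh fell there from 173 ± 14.6 to 119 ± 3.70 CPM (-0.52, SE 0.08, edgeR adjusted p = 0.00315). Dgkk was called in 2 of 6 fits without 1 library, those without wild type 3 or knockout 3, with an adjusted p of up to 0.152 in the others. Dgkh was called in 6 of 6.

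**Figure D4:**
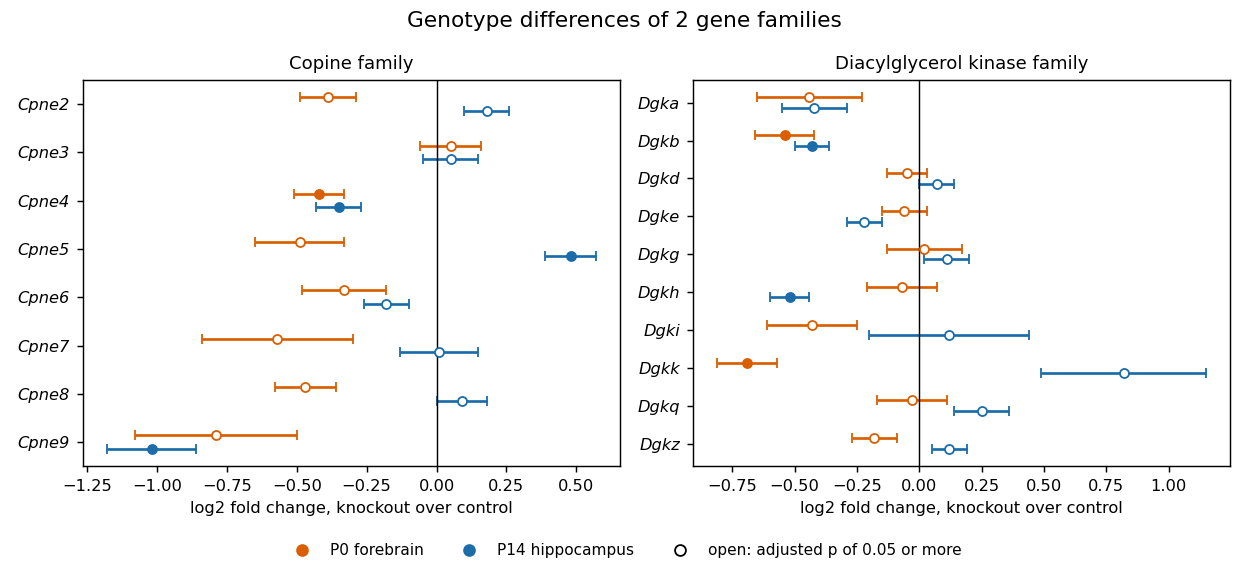
Log2 fold change of knockout over control with its SE for the 8 tested copines (left) and the 10 tested diacylglycerol kinases (right), at P0 (orange) and P14 (blue), filled where the adjusted p is under 0.05. Cpne4 and Dgkb are the genes filled in both contexts; Cpne5 lies at -0.49 at P0 and 0.48 at P14.

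Genes that make, use or answer to diacylglycerol, the substrate of Dgkb, or act on its products, were mostly below 0 at P0. Of 23, 22 lay below 0 with a median of -0.26, beside 50.1% and -0.000337 for all genes. In edgeR 1 passed, Prkcd, a diacylglycerol-activated protein kinase C, 9 had an unadjusted p under 0.05, and DESeq2 called Prkcb, Prkcd and Rasgrp2. Prkcd fell from 25.9 ± 0.232 to 18.6 ± 0.222 CPM (SD, n = 3; log2 fold change -0.48, SE 0.10, edgeR adjusted p = 0.0416) and was called in 1 of 6 fits without 1 library, the one without knockout 3, with an adjusted p of up to 0.22. At P14 the median of the 23 was -0.00063, and 3 rose in edgeR. DESeq2 also called Prkcd, which was lower there, with an edgeR log2 fold change of -0.40 (SE 0.11, edgeR adjusted p = 0.0703). Unc13c, a synaptic vesicle priming factor with a diacylglycerol-binding domain, went from 35.7 ± 3.89 to 54.8 ± 2.61 CPM (0.63, SE 0.09, edgeR adjusted p = 0.00263), in 6 of 6 fits without 1 library. Rasgrp2, a diacylglycerol-regulated exchange factor for Rap, was at 0.52 (SE 0.11, edgeR adjusted p = 0.0271) and Prkcb, a conventional protein kinase C, at 0.31 (SE 0.07, edgeR adjusted p = 0.0302). Both were called only in the fit without control 3 among the 6 that leave out 1 library, with an adjusted p of up to 0.20.

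Around the 3 adhesion genes, edgeR called relatives only at P14. Of the other 11 tested RGD ligands and integrins, 0 were called at P0 by edgeR or DESeq2, and 1 had an unadjusted p under 0.05. Of these 11, 2 were called at P14 by edgeR, beside 1.99% of all genes, and the same 2 by DESeq2. At P14, Vtn, which encodes the RGD ligand vitronectin and is also a pericyte marker, fell from 57.8 ± 6.91 to 36.7 ± 5.29 CPM (SD, n = 3; -0.65, SE 0.11, edgeR adjusted p = 0.00892), in 6 of 6 fits without 1 library. Itga8, an integrin subunit that binds RGD ligands, was at -0.51 (SE 0.12, edgeR adjusted p = 0.0352) and was called in 2 of 6, without control 3 or knockout 2, with an adjusted p of up to 0.211. The mural, fibroblast and meningeal list, which contains Vtn, summed to 478 to 514 CPM in the P14 controls and 324 to 453 in the knockouts. Of its tested genes, 11 of 11 lay below 0 and 1 was called, which was Vtn itself. The sum without Vtn was not examined, and the part of these cells in the Vtn value was not tested. The other CCDC85 genes, Ccdc85b (0.32 at P0 and 0.04 at P14) and Ccdc85c (0.17 and 0.23), and the 4 delta catenins were not called by edgeR in either context. An unadjusted p under 0.05 was found for 3 of these 6 at P0 and 2 at P14, and DESeq2 called Pkp4 at P0 and Ctnnd2 at P14. Neither tool called any of the other 9 tested cadherin-related genes in either context, with 1 unadjusted p under 0.05 in each, among them Clstn1 (-0.08 and 0.18), a calsyntenin.

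The level of 9130024F11Rik depended on how reads were assigned. The libraries carry no strand information, since the strand columns held 50.0% to 50.1% of reads each, so its reads cannot be told apart from reads of the opposite strand. The unstranded count leaves out reads that fall in exons of more than 1 gene, and for 9130024F11Rik the strand columns together held 26.2% to 46.0% more reads than the unstranded count, against 0.0% for the other 5 genes. With the larger strand column in place of the unstranded count, its log2 fold changes were 0.62 at P0 and 1.00 at P14.

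Of 13 tested genes on the list of callosal or upper-layer genes, 1 rose at P0 and 1 fell at P14 in edgeR. At P0, 8 of 13 had an unadjusted p under 0.05 and DESeq2 called Lhx2, Lmo4, Pou3f1 and Pou3f3. The list summed to 1790 to 1880 CPM in the P0 wild types and 1950 to 2040 in the knockouts, without overlap, and its sums overlapped at P14. Lhx2, a transcription factor of cortical progenitors and upper layers, rose at P0 from 87.4 ± 7.09 to 118 ± 5.43 CPM (SD, n = 3; 0.42, SE 0.08, edgeR adjusted p = 0.0368) and was called in 2 of 6 fits without 1 library, those without wild type 3 or knockout 3. Epha3, an ephrin receptor, fell at P14 from 28.2 ± 1.51 to 21.1 ± 0.579 CPM (-0.41, SE 0.09, edgeR adjusted p = 0.0309), a call kept only without control 3, with an adjusted p of up to 0.138. The median of the list was 0.19 at P0 and 0.026 at P14. At P14, 4 of 13 cortical excitatory markers were called higher, Fezf2 among them, with sums of 2690 to 2900 CPM in controls and 2870 to 3040 in knockouts. The striatal projection list summed to 235 to 279 CPM in the P14 controls and 314 to 420 in the knockouts, with 2 of 14 called higher. The part of these cells in the values of 9130024F11Rik was not tested.

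In bulk tissue, fewer cells of a type and less RNA per cell cannot be told apart. Of 18 marker lists, 5 had summed levels lower in the knockouts without overlap at P0 and 5 at P14. In each context 2 lists were higher, CA pyramidal neurons and choroid plexus at P0 and striatal projection neurons and hindbrain at P14. Among all single genes tested, 11.1% were lower and 10.7% higher without overlap at P0, and 10.6% and 9.43% at P14. A list sum is not the same measure as a single gene, and whether the lists depart from these shares was not tested. A sum is led by its highest genes. At P0, 9 of 12 tested CA pyramidal genes lay below 0 (median -0.17), with 0 called higher and 1 lower. Of that list, Mpped1 went from 427 to 544 CPM. Among the 9 tested choroid plexus genes, 4 lay below 0 and 0 were called, with Ttr at 736 and 898 CPM. The hindbrain list held few reads, at 2.08 to 3.46 CPM in the P14 controls and 3.88 to 3.95 in the knockouts, with 2 genes tested and 0 called. Dentate granule cells were the only list lower in both. The others that were lower were striatal projection neurons, astrocytes, oligodendrocyte precursors and oligodendrocytes at P0, and interneurons, mitral and tufted cells, endothelial cells and mural cells at P14. The interneuron list shares Prox1 with the dentate list. At P14 the interneuron list had 9 of 14 genes below 0 and 3 called lower, Prox1 among them. Its sum without Prox1 was not examined. At P0 the dentate list summed to 312 to 365 CPM in the wild types and 258 to 273 in the knockouts, with 12 of 12 tested genes below 0, a median of -0.40 and 2 called, Calb1 and Pdzd2. The largest falls in mean CPM within that P0 sum were those of Calb1 (62.6 to 41.6), Stxbp6 (56.8 to 39.2) and Pdzd2 (47.3 to 32.6). Calb1 was called lower in both contexts, as the 5 lower genes were, and the dentate sum without Calb1 was not examined. Pdzd2 had a log2 fold change of 0.27 at P14, without a call. At P14 the dentate list summed to 959 to 1030 CPM in the controls and 697 to 743 in the knockouts, with 12 of 14 below 0, a median of -0.51 and 10 called. Its defining gene Prox1 was at 191 ± 16.7 against 112 ± 13.3 CPM (SD, n = 3; -0.76, SE 0.10, edgeR adjusted p = 0.00111) at P14, and at 55.6 ± 2.65 against 52.8 ± 4.31 CPM (-0.08, SE 0.09, edgeR adjusted p = 0.708) at P0. Dsp and C1ql2, also defining, fell by 0.93 (SE 0.12, edgeR adjusted p = 0.00131) and 0.89 (SE 0.11, edgeR adjusted p = 0.000716) at P14, and at P0 did not pass. Dsp was there at 1.71 ± 0.868 CPM in the wild types and 0.936 ± 0.223 in the knockouts (-0.91, SE 0.42, edgeR adjusted p = 0.301), and C1ql2 at 3.17 ± 0.681 and 1.75 ± 1.26 CPM (-0.79, SE 0.42, edgeR adjusted p = 0.394). The part of dentate cells in the 5 lower genes was not tested. The mitral and tufted list contains Cdhr1, which was chosen for being lower. Without Cdhr1, its other 7 genes summed to 29.2 to 32.4 against 27.5 to 28.4 CPM at P14, a narrow gap, and overlapped at P0, at 63.3 to 73.0 and 57.1 to 69.0 CPM.

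Within groups, the lower genes did not all vary together. After subtraction of each group's mean, the Pearson r of log2 CPM over 12 libraries was 0.68 between Ccdc85a and Dgkb, 0.50 between Edil3 and Ccdc85a, 0.44 between Ccdc85a and Cdhr1 and 0.38 between Edil3 and Dgkb. The other 6 pairs lay between -0.16 and 0.15, and the median of the 10 pairs was 0.11. Cpne4 was close to 0 with each of the 4 others, from -0.16 to 0.15. The non-coding RNA had r = 0.49 with Edil3 and -0.47 with Cpne4. The libraries share tissue, series and depth within a context, so these are descriptions.

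The genes with the pattern most like each of the 6 were ranked by Pearson r of log2 CPM centred within each context, over 12 libraries and 14206 genes. This measure holds the genotype difference that chose the genes. Nearest to Edil3 were Kcnab1 (r = 0.966), a potassium channel beta subunit, Rtn4 (0.962), which encodes Nogo, and Spock3 (0.948), a testican. Spock3 had log2 fold changes of -0.52 at P0 and -0.40 at P14. Nearest to Ccdc85a were Serpinb9 (0.974), Calb1 (0.956) and Dgkb (0.952), and nearest to Dgkb were Ankrd29 (0.970), Tpd52l1 (0.953) and Ccdc85a (0.952). Cpne4 and Cdhr1 shared their first gene, Prkcd (0.953 and 0.941), and Plxdc2 (0.930) was also near Cpne4 and Ccdc85a (0.905) near Cdhr1. For 9130024F11Rik they were Phactr1 (0.956), Mir124-2hg (0.954), the host gene of a neuronal microRNA, and Ypel1 (0.927). Mir124-2hg had log2 fold changes of 0.34 at P0 and 0.57 at P14.

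Genes next to the 6 were compared with them by position. Of 22 tested genes within 500 kb at P0, 1 was called (4.55%, beside 0.909% of all genes), and of 25 at P14, 2 were called (8.0%, beside 1.99%). At P0 this was Atp2c1, a Golgi calcium pump 368 kb from Cpne4, at 186 ± 8.07 against 146 ± 10.1 CPM (SD, n = 3; -0.36, SE 0.08, edgeR adjusted p = 0.0482), a call kept in 1 of 6 fits without 1 library, the one without knockout 3, with an adjusted p of up to 0.282. At P14 they included Efemp1, a matrix protein gene 268 kb from Ccdc85a, which fell from 4.82 ± 0.927 to 2.04 ± 0.368 CPM (-1.23, SE 0.23, edgeR adjusted p = 0.0126) and lost the call without control 1 or knockout 1, with an adjusted p of up to 0.0845. Hapln1, a link protein of the extracellular matrix 216 kb from Edil3, was lower in both without passing, with log2 fold changes of -0.94 (SE 0.28, edgeR adjusted p = 0.125) and -0.42 (SE 0.11, edgeR adjusted p = 0.0714). On the same side of 0 as the gene they neighbour were 15 of the 22 at P0 and 13 of the 25 at P14, all called neighbours included.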

How the data were processed

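RNA of 12 individual male mice was purified with Trizol and DNase I, made into Illumina TruSeq libraries and sequenced in pairs of 150 bp on an Illumina HiSeq, per the labels' protocols. The values are raw gene-level read counts, deposited as a file for each library and made by the authors with STAR 2.7.5a on GRCm38 (mm10), annotation release 102, per the file names and the submitters' processing notes, which also list edgeR 3.12. Read trimming and the treatment of reads with several positions are not given in the sources used here. The unstranded count was used, since the strand columns were equal. No line lacked a gene name. Symbols came from GENCODE vM21 for 55227 of 55487 identifiers.

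Groups came from the labels, 3 libraries each, and replicate numbers follow accession order. Replicates differed by more than sampling noise (chi-square per degree of freedom 3.10 to 19.3), so each counted as 1 sample. Whether mice came from separate litters is not given, so p-values measure the spread between these mice.

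The 6 libraries of a context were fitted together in R 4.3.3 with edgeR 4.0.16 (filterByExpr, TMM, estimateDisp, robust glmQLFit, glmQLFTest, Benjamini-Hochberg over all genes tested, threshold 0.05), on 16176 genes at P0 and 17208 at P14. Contrasts between contexts and the difference of genotype effects came from 1 fit of all 12 libraries on 18189 genes. The common biological coefficient of variation reached 0.104 in the P0 and 0.0998 in the P14 fit. CPM used TMM over all 12 libraries, and log2 CPM a prior count of 2. The steps were tested on simulated data. Counting error and variation between animals enter each SE together.

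The 6 genes and all gene lists were chosen with earlier results of these data known. Genes named are the 6, Auts2, genes called in both contexts in the same direction, the 3 nearest in pattern to each of the 6, called genes of the family and pathway lists, called neighbours within 500 kb, and defining markers of lists whose sums did not overlap. Family members given without a call, the genes just outside the threshold, Hapln1, Pdzd2, Stxbp6 and Mpped1 were named after their values were seen. Results on 2 genes that this rule or the lists would name are not reported here, and the list counts leave them out. The alternatives were RLE size factors, DESeq2 1.42.0, no filter on low counts, a minimum of 10 counts in each library, the larger strand column, non-robust fitting, 1 fit of all libraries, the P0 library series as a term or its first 4 libraries alone, an offset on GC content, a window of 1000 kb, a prior count of 0.5 and leaving out each library. Isoforms and exon 7 were not analysed here.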

Additional observations from a re-analysis of the deposited data

Results flagged for a closer look

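In 9 genes of the family and pathway lists, none of them among the 6 genes, the genotype effect differed between P14 hippocampus and P0 forebrain by the interaction term of edgeR over 12 libraries, which 1.79% of all genes passed. Values are the log2 fold change at P14 minus that at P0.

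Among genes that answer to diacylglycerol, the difference was 0.93 for Unc13c (SE 0.15, edgeR adjusted p = 0.00186), 0.66 for Prkcb (SE 0.12, edgeR adjusted p = 0.00521) and 0.90 for Rasgrp2 (SE 0.17, edgeR adjusted p = 0.00601). These 3 were called in 12 of 12 fits without 1 library. Each was higher in the P14 knockouts, at 0.63, 0.31 and 0.52, and had a value below 0 at P0, at -0.32, -0.37 and -0.40.

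Among the relatives of Cpne4, the difference was 0.95 for Cpne5 (SE 0.19, edgeR adjusted p = 0.015), called in 11 of 12 fits without 1 library. It was 0.56 for Cpne2 (SE 0.13, edgeR adjusted p = 0.0308), called in 3 of 12, and 0.54 for Cpne8 (SE 0.14, edgeR adjusted p = 0.0449), called in 2 of 12. Cpne4 itself differed by 0.06 between contexts (SE 0.12), which its choice favours.

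The remaining calls rested on few of the 12 fits. Dgkk differed by 1.49 (SE 0.35, edgeR adjusted p = 0.0473), called in 2 of 12, at 4.46 ± 1.95 and 7.75 ± 2.40 CPM (SD, n = 3) in the P14 controls and knockouts. Lhx2 differed by -0.53 (SE 0.12, edgeR adjusted p = 0.0307), called in 5 of 12. Pkp4, a delta catenin, differed by 0.43 (SE 0.10, edgeR adjusted p = 0.0358), called in 3 of 12. No group held more than 3 libraries, so single libraries were not screened as outliers.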

How the results depend on the processing

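Of 180 recomputed log2 fold changes of the 6 genes at P0 and P14, 177 moved by less than 1 SD, 3 moved more (Ccdc85a at -0.68 and 9130024F11Rik at 0.69 at P0 in the 4 libraries of the first series, and Dgkb at -0.30 at P14 with the GC offset) and 0 changed sign, which the choice of these genes favours. The number of genes called depended on the settings. At P0, 147 genes were called, against 382 with DESeq2, 625 without a filter, 50 with non-robust fitting, 379 with the GC offset, 284 in 1 fit of 12 libraries, 465 with the series as a term, 2107 in the first 4 libraries, and 1 to 775 without 1 library. At P14, 342 were called, against 534 with DESeq2, 814 without a filter, and 104 to 1808 without 1 library. The interaction gave 326, against 531 with DESeq2, 646 without a filter, 205 with the larger strand column, and 125 to 905 without 1 library.

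Family and pathway genes other than the 6 numbered 3 at P0, against 12 with DESeq2, 17 without a filter, 1 with non-robust fitting, 11 with the GC offset, 7 in 1 fit of 12 libraries, 8 with the series as a term, 28 in the first 4 libraries, and 0 to 18 without 1 library. At P14 they numbered 9, against 14 without a filter, 5 with the larger strand column, and 4 to 21 without 1 library. Neighbours called at P0 numbered 1, against 2 without a filter, 0 with non-robust fitting or the larger strand column, 4 in the first 4 libraries, and 0 to 2 without 1 library, and at P14 2, against 1 to 4. The cause of these shifts was not tested. Counts of genes that differed between contexts stayed within 1.5 times. No paired analysis was possible because the replicate numbers follow accession order and the labels pair no mice across groups; the P0 library series, fitted as a term above, is a split by library number and pairs no mice. With 3 libraries a group, the exact permutation test cannot go below 0.1, and genes at few CPM, such as 9130024F11Rik at P14, rest on 63 to 217 reads per library.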
